A study of Mus musculus with 8 samples.

Results

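Cytosolic ribosomal protein genes encode the protein part of the ribosomes in the cytoplasm, and their mRNAs were counted here in single leukocytes from arthritic mouse joints. The genes were chosen by name, as every gene whose symbol is Rpl or Rps followed by a number, with or without a further letter or number, plus Rplp0, Rplp1, Rplp2 and Rpsa. Pseudogenes and the ribosomal S6 kinases were not included. The rule found 84 of 28434 genes, of which 52 belong to the large subunit or its stalk and 32 to the small subunit. Of these, 14 lie on chromosome 7 and 4 on the X chromosome (Rpl10, Rpl36a, Rpl39 and Rps4x). Of the 84, 82 had enough counts to be tested between cell classes. Rpl10l had no count in any cell and Rpl39l had 18 counts in 11 cells, and these 2 paralogs, known from the testis, are given by their counts alone. Rpl6l is annotated as a processed pseudogene under a gene symbol. Pseudogenes named after them are annotated for 60 of the 84 (298 in all), so reads of these genes could be split between near-identical copies.

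A ribosome is built from a small subunit, which reads the mRNA, and a large subunit, which joins the amino acids, and it holds a single copy of almost every ribosomal protein. The stalk proteins on the large subunit recruit the factors that drive elongation. mRNAs of ribosomal proteins begin with a short run of pyrimidines, the 5′ terminal oligopyrimidine (TOP) tract, through which growth signalling by mTOR turns their translation up and down as a group. Neutrophils leave the bone marrow as cells that have already made most of their granule proteins, whereas lymphocytes keep the capacity to grow and divide.

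C57BL/6 mice received K/BxN serum, which induces arthritis through antibodies, in a schedule for prolonged disease, and were then given monocytes taken from arthritic mice. These monocytes had been incubated with vehicle (the Mono group, 4 mice) or with 1 nM of the lipid mediator maresin conjugate in tissue regeneration 3 (the Mono+MCTR3 group, 4 mice). All 8 mice therefore had arthritis and donor monocytes, no group of healthy or untreated mice was analysed here, and donor and host cells cannot be told apart in these data. Live CD45+ cells were sorted from digested paw joints and sequenced with the Chromium 3′ kit, which counts each captured mRNA molecule as 1 unique molecular identifier (UMI) whatever its length. The tables tell the 4 mice of a group apart by a suffix on the cell barcode, which does not say which labelled mouse it is, so the mice are numbered 1 to 4 within a group only as names.

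Of 10538 cells, 10256 passed limits of 250 to 3000 genes, 500 or more UMIs and no more than 5% of UMIs from mitochondrial genes, 5241 in Mono and 5015 in Mono+MCTR3. Each mouse gave 758 to 1913 cells, 1731045 to 6009009 UMIs and 195003 to 889151 UMIs of ribosomal protein genes. Cells were clustered without the ribosomal protein genes, and the clusters were named from marker genes as neutrophil-like (6891 cells, 67.2%), B cell-like (1412), T cell-like (766), NK cell-like (630) and mononuclear phagocyte-like (351), called neutrophils, B cells, T cells, NK cells and mononuclear phagocytes from here on. All 16 neutrophil, 13 B cell, 14 T cell, 12 NK cell and 15 monocyte or macrophage markers had their highest level in the class of that name. The clusters had been named from these same markers, so this is not an independent check of the names. A UMI of Ptprc, the gene of CD45, was seen in 57.3% of cells, while fibroblast and endothelial cell markers summed to 217.6 and 23.2 CPM (UMIs per 1000000 UMIs). Mono+MCTR3 mice 3 and 4 had 8 and 6 mononuclear phagocytes and were left out of that class, which leaves 4 against 2 mice there. Free RNA was measured through markers: the summed T cell markers in neutrophils were at 0.591% of their level in T cells, the B cell markers at 0.624% of their level in B cells, and neutrophil markers in the other 4 classes at 1.51 to 2.39% of their level in neutrophils.

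The start of 8 genes is shown because these genes stood at opposite ends of the comparison between neutrophils and the other classes described below, and they were picked after those values were seen. Each sequence runs from 50 bases before to 30 bases from the transcription start annotated by RefSeq on GRCm38.p6, 5′ to 3′ on the strand of the gene, and the capitals mark the longest unbroken run of C and T within 20 bases of the start. Rpl12 (chr2:32961662-32961741, plus strand), Rpsa (chr9:120127716-120127795, plus strand), Rps18 (chr17:33955636-33955715, minus strand) and Rpl14 (chr9:120571467-120571546, plus strand) made up a larger share of the ribosomal protein UMIs in the other 4 classes than in neutrophils.
Rpl12: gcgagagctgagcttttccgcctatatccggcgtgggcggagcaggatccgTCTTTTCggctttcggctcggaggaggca
Rpsa: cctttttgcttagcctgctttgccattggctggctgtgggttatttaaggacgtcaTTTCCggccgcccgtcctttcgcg
Rps18: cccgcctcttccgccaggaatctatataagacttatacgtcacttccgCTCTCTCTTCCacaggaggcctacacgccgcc
Rpl14: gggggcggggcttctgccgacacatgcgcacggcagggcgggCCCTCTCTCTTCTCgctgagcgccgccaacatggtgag

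Rps9 (chr7:3703991-3704070, plus strand), Rpl37 (chr15:5116563-5116642, plus strand), Rps25 (chr9:44407664-44407743, plus strand) and Rps27 (chr3:90213619-90213698, minus strand) made up a larger share in neutrophils.
Rps9: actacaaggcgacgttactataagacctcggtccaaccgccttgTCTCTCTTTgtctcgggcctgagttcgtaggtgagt
Rpl37: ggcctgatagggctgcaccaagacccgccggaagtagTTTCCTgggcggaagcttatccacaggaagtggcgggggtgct
Rps25: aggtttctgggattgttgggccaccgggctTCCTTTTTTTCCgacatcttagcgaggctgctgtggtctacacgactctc
Rps27: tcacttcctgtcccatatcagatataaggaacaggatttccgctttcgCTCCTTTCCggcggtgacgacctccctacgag

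The marked runs were 7, 5, 11 and 14 bases long in the first 4 genes and 9, 6, 12 and 9 in the other 4, so both sets held short and long runs. Not all lay at the annotated start. The run began 20 bases before it in Rps25, 13 bases before it in Rpl37 and at base 7 after it in Rpsa. Over all ribosomal protein genes, 75 RefSeq starts of 63 genes could be read and were set beside the same windows of 32851 starts of all genes. A C at the annotated start followed by 4 pyrimidines, the form of a TOP tract, was present at 17.33% of the ribosomal protein starts and at 2.505% of all starts. A run of at least 8 pyrimidines within 20 bases of the start was present at 41.33% and 16.05%. Motifs were searched on either strand of the 300 bases around the start. CCGGAA, the core bound by ETS factors such as GABP, was present at 48.0% of ribosomal protein starts and 14.9% of all starts. For AAGATGG, the core bound by YY1, the shares were 16.0% and 6.338%. For GGGCGG, the core bound by Sp1, they were 60.0% and 35.66%, and for TATAAA, the core bound by TBP, 9.333% and 13.62%. These are counts of letters in annotated windows and not of bound sites.

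The study asked how MCTR3-incubated monocytes change the leukocytes of the inflamed joint, and the first comparison sets out how much of each leukocyte's mRNA came from ribosomal protein genes before the groups are compared. Ribosomal protein mRNAs made up a small share of the UMIs in neutrophils and a large one in T cells. In neutrophils the share was 3.65% ± 0.256 of all UMIs (SD, n = 8 mice), with 3.30%, 3.69% and 3.97% as the lowest, median and highest mouse. In T cells it was 41.4% ± 2.20 (38.5%, 42.2% and 43.7%), 11.3 times the share in neutrophils. B cells stood at 25.2% ± 2.09 (21.7%, 25.0% and 28.9%), NK cells at 22.2% ± 1.99 (19.7%, 22.1% and 26.2%) and mononuclear phagocytes at 20.3% ± 1.08 (18.4%, 20.5% and 21.3%, n = 6). The lowest mouse for T cells lay above the highest of every other class, and the highest mouse for neutrophils lay below the lowest of every other class. The ranges of B cells, NK cells and mononuclear phagocytes overlapped, so their order is not given. Over all cells of a mouse the share was 8.80 to 16.2%, and Mono+MCTR3 mouse 3, with 83.7% neutrophils among its cells, was the lowest, while Mono mouse 4, with 54.8%, was the highest.

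**Figure D1:**
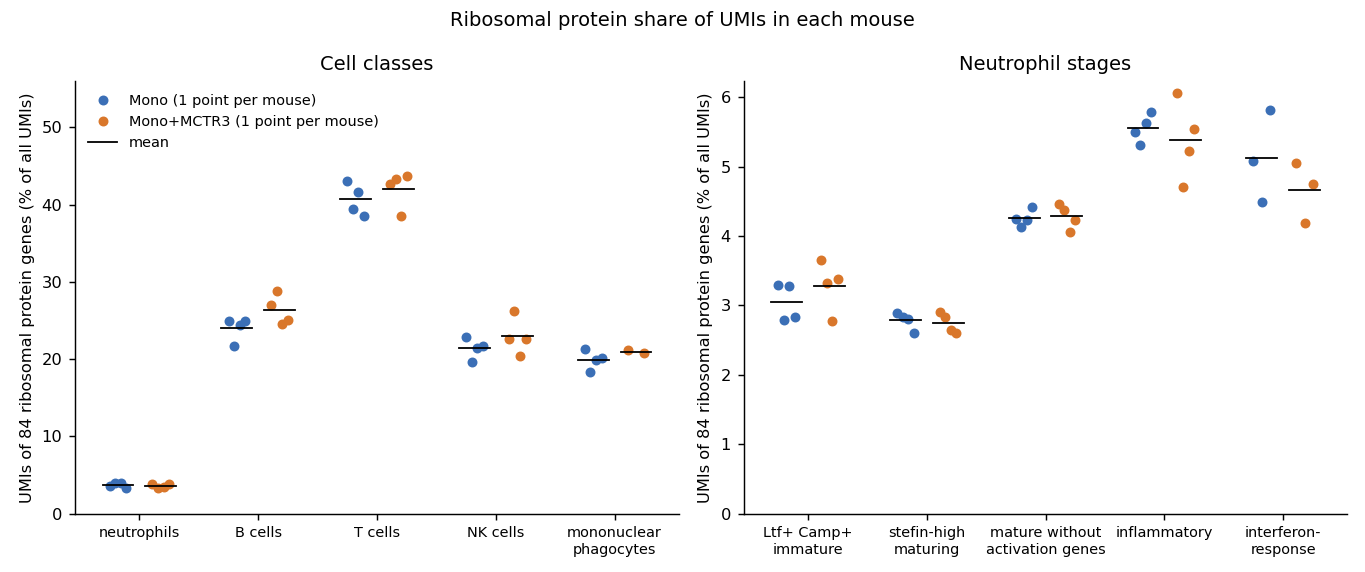
Percent of all UMIs that came from the 84 ribosomal protein genes (vertical axis) in 5 cell classes (left) and 5 neutrophil stages (right), 1 point per mouse, blue for Mono and orange for Mono+MCTR3, with a line at each group mean. The 8 neutrophil points lie between 3.30 and 3.97%, all T cell points lie at 38.5% or above, and the blue and orange points overlap in every class and stage.

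The number of ribosomal protein UMIs per cell, a scale that is not relative to other mRNAs, again put neutrophils below every other class. The median neutrophil of a mouse held 60 to 76 of them, against 391 to 616 in NK cells, 413 to 664 in B cells, 923 to 1477.5 in mononuclear phagocytes and 1269.5 to 1709.5 in T cells. On this scale T cells overlapped with mononuclear phagocytes, which lay above B cells and NK cells. T cells were also deeper than neutrophils, with 3251 to 3789 against 1430 to 2270 median UMIs per cell in all, and mononuclear phagocytes deeper still, with 5377 to 7187. These counts depend on how well each cell was captured as well as on its content, and the 2 cannot be told apart.

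Nearly every single gene followed the sum. On the CPM scale T cells had the highest mean level for 79 of the 83 genes with any count and neutrophils the lowest for 81. The exceptions at the top were Rpl10 and Rps27l, highest in mononuclear phagocytes, Rpl7l1, highest in B cells, and Rpl3l, highest in neutrophils. Levels of different genes are given in UMIs and not per length, since the kit counts 1 end of each molecule.

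The most abundant gene was Rps27, a zinc-binding protein on the surface of the small subunit. Its level in neutrophils was 1870, 2597 and 3236 CPM in the lowest, median and highest mouse, and in T cells it was 15625, 17180 and 19385 CPM, so the classes were far apart. Rps29, Rpl13 and Rps19 were also among the 5 genes with the highest mean level over the 5 classes. Rps19, whose loss causes an inherited anaemia, was at 281 ± 19.4 CPM in neutrophils and at 10770 ± 811 CPM in T cells (SD, n = 8).

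The contrast was widest for Rpl12, a protein at the base of the large subunit stalk. It had 25.4, 31.1 and 46.5 CPM in the lowest, median and highest mouse in neutrophils, and 2235, 2841 and 3370 CPM in T cells. Its neutrophil level was 1.16% of the T cell level, which is near the 0.591% seen for T cell markers. Rpl10a, of the stalk through which spent tRNA leaves, and Rpl3, close to the catalytic centre, were the other 2 of 82 genes under 2%, at 1.51% and 1.60%. A further 49 genes were at 2 to 10%, and 30 at 10% or more. The part of free RNA in these low neutrophil levels was not tested.

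At the other end stood Rps9, which lines the path of the mRNA into the small subunit. It had 2081, 2580 and 2924 CPM in the lowest, median and highest mouse in neutrophils and 4792, 5427 and 5554 CPM in T cells, so its neutrophil level was 47.6% of that in T cells. Rps27a, made as a fusion with ubiquitin, was at 35.6%, and Rpl37, a small zinc-binding protein of the large subunit, at 26.4%.

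**Figure D2:**
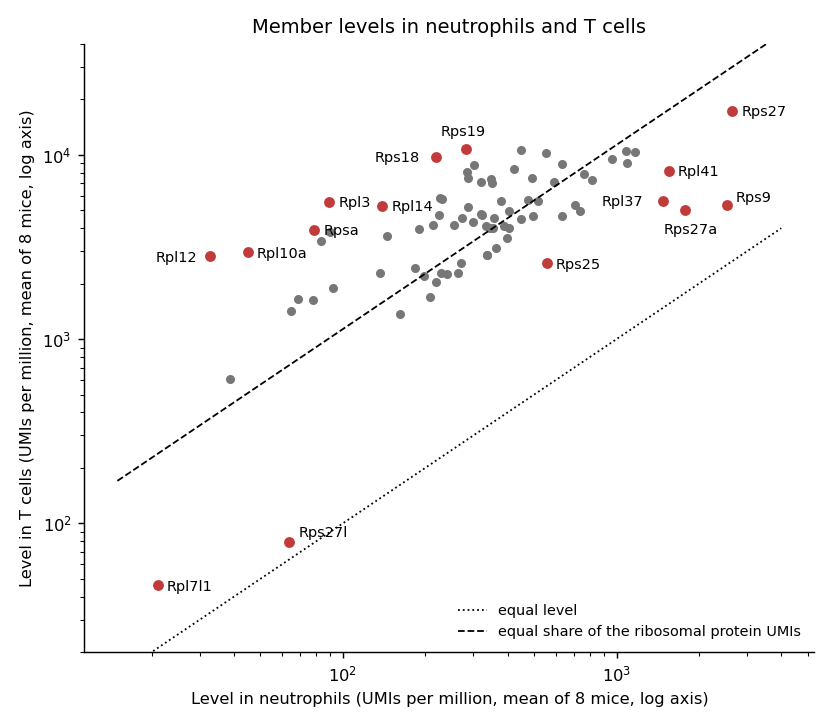
Mean level of each ribosomal protein gene in neutrophils (horizontal axis) and T cells (vertical axis), in CPM over 8 mice on log axes, with 1 point per gene; Rpl3l, Rpl39l and Rpl10l are left out. The dotted line marks equal levels and the dashed line an equal share of the ribosomal protein UMIs. Every gene shown lies above the dotted line, Rpl12, Rpl10a and Rpl3 lie far above the dashed line, and Rps9, Rps27a and Rpl37 lie well below it.

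Each class was compared with neutrophils gene by gene, with counts summed per mouse, edgeR's quasi-likelihood test, the mouse as a block, and Benjamini-Hochberg adjustment over 5620 genes. A gene is called here where its adjusted p is under 0.05. Because the clusters were made without the ribosomal protein genes, these genes did not define the classes they are compared between. In T cells 78 of 82 were higher and 2 lower (of all genes tested, 41.6% were higher and 40.8% lower). In B cells 77 were higher and 4 lower (43.9% and 39.4% of all genes), in NK cells 75 and 4 (41.4% and 39.0%), and in mononuclear phagocytes 77 and 4 (38.0% and 38.2%). The median log2 fold change of the 82 genes was 2.58 in T cells, 1.77 in B cells, 1.50 in mononuclear phagocytes and 1.43 in NK cells, beside 0.00, 0.10, 0.00 and 0.06 for all genes.

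These fold changes use TMM scaling, which sets the bulk of genes to no change. With library totals instead, which keep each class's CPM, the median of all genes was higher by 1.08 (T cells), 1.28 (B cells), 1.23 (mononuclear phagocytes) and 1.42 (NK cells) log2 units, and 81 ribosomal protein genes were higher and 1, Rpl3l, lower in each class. In that scaling 63.8%, 69.6%, 67.7% and 71.0% of all genes were higher and 21.8%, 18.9%, 13.7% and 16.3% lower, in the same order. In both scalings 78, 77, 77 and 75 ribosomal protein genes were called higher. Of all genes, no more can be higher in both than were higher by TMM, the smaller share in each class.

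Rpl12 was among the largest changes in each class, with a log2 fold change of 5.34 ± 0.10 in T cells (SE, adjusted p = 6.6e-37), 4.02 ± 0.10 in B cells, 3.40 ± 0.10 in NK cells and 3.06 ± 0.11 in mononuclear phagocytes. Rpl10a followed with 4.95 ± 0.09 in T cells, 4.02 ± 0.08 in B cells, 3.62 ± 0.09 in NK cells and 3.91 ± 0.09 in mononuclear phagocytes. Rpl3 changed by 4.88, 3.79, 3.64 and 3.63 in the same order of classes. Rpsa, a small subunit protein also known as the laminin receptor precursor, changed by 4.55, 3.25, 3.05 and 3.19. Rps18, in the head of the small subunit, changed by 4.41, 3.19, 2.94 and 2.88. The pattern was not the same for Rps19, with 4.18 in T cells and 3.50 in B cells against 2.13 in NK cells and 2.76 in mononuclear phagocytes. Among the 5 most abundant genes Rps27 and Rps29 moved less than the median gene: Rps27 rose by 1.66 ± 0.07 in T cells, 0.90 ± 0.07 in B cells and 0.33 ± 0.07 in NK cells, and Rps29 by 2.09, 1.04 and 0.74, while Rpl13 rose by 3.50, 2.47 and 2.16.

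The genes called lower were few, and their direction depended on the scaling. Rps9 fell in B cells (-0.50 ± 0.06, adjusted p = 2.5e-09), NK cells (-1.25 ± 0.07) and mononuclear phagocytes (-0.51 ± 0.07) and stood at 0.00 ± 0.06 in T cells (adjusted p = 0.949), but with library totals it was higher in all 4 classes (0.79, 0.17, 0.73 and 1.07). Rps27a fell in the same 3 classes (-0.56, -0.79 and -0.28), and turned positive with library totals (0.73, 0.64 and 0.97). Rps27l was lower in B cells (-1.01 ± 0.11) and T cells (-0.71 ± 0.11) and turned to 0.28 and 0.37 with library totals. Rps27 in mononuclear phagocytes (-0.27 ± 0.08, adjusted p = 0.0024) and Rpl37 in NK cells (-0.19 ± 0.06, adjusted p = 0.0058) turned likewise, to 0.97 and 1.23. The call for Rps27 in mononuclear phagocytes was lost without Mono+MCTR3 mouse 1 (-0.16), and that for Rpl37 in NK cells without any 1 of 6 of the 8 mice. Rpl37 was not called in B cells (0.03) or mononuclear phagocytes (-0.10). Rpl3l was the 1 gene lower in all 4 classes in both scalings. It passed the low-count filter through neutrophils, where it had 520 UMIs, against 36 in mononuclear phagocytes and 2 in T cells. A call in the other direction was therefore hardly possible.

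The next question was whether the genes kept fixed proportions to each other. They did not. In neutrophils the 5 genes with the most UMIs held 27.4% of all ribosomal protein UMIs, against 12.6 to 15.7% in the other classes. Rps27 held 7.22% in neutrophils and 4.21% in T cells, Rps9 6.91% and 1.28%, Rps27a 4.92% and 1.21%, Rpl41 4.25% and 1.99%, and Rpl37 4.06% and 1.36%. In the other direction Rps18 held 0.599% and 2.36%, Rpl3 0.244% and 1.35%, Rpsa 0.218% and 0.948%, Rpl10a 0.124% and 0.715%, and Rpl12 0.0905% and 0.680%.

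The counts were fitted once more with the ribosomal protein total of each sample in place of the library total, so that a fold change tells whether a gene's share of the ribosomal protein UMIs differed. In this fit 43 genes took a larger and 32 a smaller share in T cells than in neutrophils, 43 and 28 in B cells, 46 and 27 in NK cells and 45 and 24 in mononuclear phagocytes. On this scale 11.5% of all genes were higher and 78.6% lower in T cells, 18.7% and 67.8% in B cells, 20.6% and 63.3% in NK cells, and 17.0% and 65.2% in mononuclear phagocytes. Of the 82 genes, 38 had a larger share in all 4 classes and 20 a smaller share in all 4, while 5 were larger in some classes and smaller in others (Rpl10, Rpl7, Rpl27a, Rpl7a and Rpl28). Of all genes at most 11.5% can be higher and 63.3% lower in all 4, the smallest shares of a single class. The 4 comparisons share the same neutrophil samples.

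Rps9 lost most among the abundant genes, with relative log2 changes of -2.43 ± 0.06 in T cells, -2.43 ± 0.06 in NK cells, -1.99 ± 0.05 in B cells and -1.73 ± 0.06 in mononuclear phagocytes (SE, adjusted p at most 1.6e-26). Rps27a changed by -2.02, -1.96, -2.06 and -1.50 in the same order, and Rpl37 by -1.57, -1.37, -1.47 and -1.33. Rps25, a small subunit protein used by some internal ribosome entry sites, changed by -1.30, -1.08, -0.91 and -0.64. Rpl41, whose product is the shortest of all, changed by -1.09, -0.75, -0.88 and -0.62, and Rps27 by -0.77, -0.84, -0.59 and -1.49. The gains were led by Rpl12 (2.92, 2.23, 2.52 and 1.84), Rpl10a (2.53, 2.44, 2.52 and 2.69), Rpl3 (2.45, 2.47, 2.30 and 2.41), Rpsa (2.12, 1.88, 1.75 and 1.97), Rps18 (1.98, 1.76, 1.69 and 1.65) and Rpl14 (1.74, 1.78, 1.58 and 1.47). The order was therefore much alike in lymphocytes and mononuclear phagocytes, and Rpl10, which enters the large subunit late in its assembly, was among those that were not, with -0.34 ± 0.06 in T cells and 0.76 ± 0.06 in mononuclear phagocytes.

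**Figure D3:**
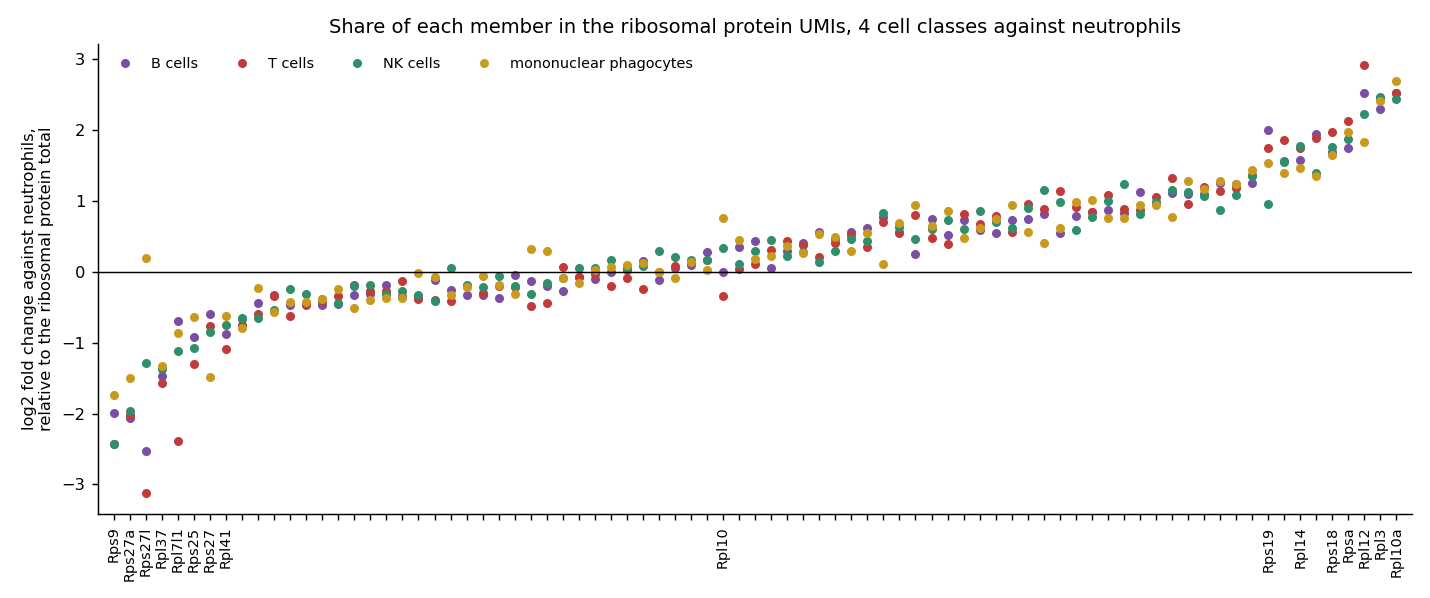
Log2 fold change of each ribosomal protein gene's share of the ribosomal protein UMIs (vertical axis) in B cells, T cells, NK cells and mononuclear phagocytes against neutrophils, with 1 point per class and genes ordered by their mean (horizontal axis, with only some genes given by name); Rpl3l is left out. Rps9, Rps27a and Rpl37 lie below -1.3 in all 4 classes, and Rpl10a, Rpl3 and Rpl12 lie above 1.8 in all 4. A value above 0 is a gain of share and not a higher level: with library totals all genes shown were higher in each class.

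Features that the choice of genes did not use varied along this order only weakly. Genes with a longer coding sequence tended to gain share outside neutrophils: across 81 genes Spearman's rho between coding length and the mean relative change was 0.243, and 0.288 without Rpl3l. The 20 shortest genes (138 to 366 coding bases) had a median relative change of -0.19, and the 20 longest (642 to 1257 bases) 0.41. The medians were 0.14 for 49 large subunit genes and 0.35 for 32 small subunit genes, with wide and overlapping ranges. The length of the longest pyrimidine run within 20 bases of the start had a rho of 0.195 with the relative change over 51 genes. For the number of named pseudogenes rho was 0.108 over 81 genes. Genes are not independent of each other, and the points share the same libraries.

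The stalk proteins, which recruit the elongation factors, moved with the rest. Rplp0, the anchor of the stalk, was at 423 ± 38.5 CPM in neutrophils and 8363 ± 324 CPM in T cells (SD, n = 8). Its partners Rplp1 and Rplp2 went from 229 to 5752 CPM and from 474 to 5696 CPM. In the TMM fit their log2 fold changes were 3.23, 3.57 and 2.51 in T cells, 1.75, 2.04 and 1.23 in B cells, 1.64, 2.16 and 1.09 in NK cells and 2.16, 1.84 and 1.14 in mononuclear phagocytes.

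The paralogs did not follow their partners in every case. Rps27l, a paralog of Rps27 that p53 induces, was at 63.7 CPM in neutrophils and 79.1 CPM in T cells, where Rps27 was far higher, and at 388 CPM in mononuclear phagocytes, a log2 fold change of 1.41 ± 0.10 against neutrophils that kept its sign in both scalings. Rpl22 and its paralog Rpl22l1 moved together, from 64.6 to 1422 CPM and from 77.8 to 1635 CPM between neutrophils and T cells. Rpl7 went from 269.8 to 2599 CPM, while Rpl7l1 went from 21.1 to 46.1 CPM and reached 97.0 CPM in B cells. Rpl6l was at 38.7 CPM in neutrophils and 606 CPM in T cells.

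The 4 genes of the X chromosome were all lower in neutrophils than in T cells. Rps4x was at 227 and 5840 CPM, Rpl39 at 272 and 4549 CPM, Rpl36a at 82.9 and 3420 CPM, and Rpl10 at 397 and 3548 CPM. Their log2 fold changes in T cells were 3.61, 2.99, 4.29 and 2.08. Rpl39l, the paralog of Rpl39, had 10 of its UMIs in T cells and 5 in neutrophils.

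Rpl3l, the muscle form of Rpl3, ran against all others. It was at 36.1 ± 8.83 CPM in neutrophils (26.0, 33.8 and 49.5 in the lowest, median and highest mouse), with 520 UMIs in all, against 6 UMIs in B cells, 2 in T cells, 3 in NK cells and 36 in mononuclear phagocytes. Per UMI sequenced, neutrophils had 19.8 times the level of B cells (exact 95% interval 9.03 to 54.2), 48.6 times that of T cells (13.4 to 402), 19.9 times that of NK cells (6.76 to 96.6) and 2.12 times that of mononuclear phagocytes (1.51 to 3.06). These intervals cover counting error only. Rpl3l lies at chr17:24727820-24736143 (GRCm38, plus strand), 498 bases upstream of Msrb1, a methionine sulfoxide reductase, on the same strand (chr17:24736642-24742778). Msrb1 was at 3709 CPM in neutrophils, 1011 CPM in mononuclear phagocytes, 169 CPM in B cells, 146 CPM in NK cells and 99.9 CPM in T cells. There were 0.973 Rpl3l UMIs for every 100 of Msrb1 in neutrophils, 0.961 in B cells, 0.501 in T cells, 1.22 in NK cells and 2.0 in mononuclear phagocytes. Where the Rpl3l reads begin, and any part of Msrb1 in them, was not tested.

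The rest of the translation machinery was read from 7 lists, and T cells against neutrophils served as the widest contrast. These genes were not kept out of the clustering, so some of them may have helped to define the classes. The low-count filter kept a gene with enough counts in any class. A gene scarce in neutrophils thus entered through the classes where it was high and could hardly be called lower. The counts of each list are to be read beside those of all genes in this contrast, of which 41.6% were higher and 40.8% lower by TMM and 63.8% and 21.8% with library totals. Of 4 cytosolic ribosomal proteins with other names 3 were higher, among them Rack1, a scaffold on the small subunit (3.59 ± 0.09), and Rpl36al (3.16). Fau, made as a fusion with a ubiquitin-like protein, was lower (-0.21 ± 0.06), a call lost when any 1 of Mono mice 2 and 4 and Mono+MCTR3 mice 1 and 3 was left out, and it was higher by 0.86 with library totals. In B cells, NK cells and mononuclear phagocytes Fau was lower by TMM as well (-0.43, -1.10 and -0.70) and turned positive with library totals.

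Elongation factors rose with the ribosomal proteins, 5 of 6 by TMM and 6 of 6 with library totals, led by Eef1g (4.09), Eef1a1 (3.10) and Eef2 (2.88). The sixth, Eif5a, was lower by TMM (-0.21, lost without any 1 of 5 mice) and higher by 0.86 with library totals. Of 30 initiation factors 22 were higher and 4 lower by TMM, 27 and 3 with library totals. Eif3e (3.99) led the higher ones. Eif4ebp1, which holds back cap-dependent initiation (-4.46), Eif1, which helps to choose the start codon (-1.90), and Eif5 (-1.51) were the lowest.

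Of 16 genes with a TOP tract or a role at the nascent chain, most of which stand in the other lists too, 14 were higher and 1 lower by TMM and 16 were higher with library totals, and Npm1, a nucleolar chaperone, changed most (4.84 ± 0.11). Of 37 ribosome biogenesis genes 27 could be tested, and 26 were higher and 0 lower (27 higher with library totals), led by Rrp9 (5.38) and Nob1 (4.94). Mitochondrial ribosomal proteins were less uniform: of 78 genes 71 were tested, and 50 were higher and 10 lower by TMM (65 and 3 with library totals), from Mrps6 (4.55) and Mrps5 (4.51) to Mrpl33 (-3.55). Of 15 regulators 10 were tested, and 3 were higher and 5 lower by TMM (5 and 4 with library totals). They included Myc, a transcription factor for ribosome genes (5.51), Trp53 (3.06) and Max, the partner of Myc (-1.99). Rrp9, Nob1, Mrps6, Mrps5 and Myc did not pass the low-count filter among neutrophils alone, so a call as lower in T cells was hardly possible for them. The list medians were 2.86 for elongation factors, 1.20 for initiation factors, 2.39 for TOP genes, 3.36 for biogenesis, 1.10 for mitochondrial ribosomal proteins and -0.69 for regulators, beside 2.58 for the ribosomal protein genes and 0.00 for all genes.

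Neutrophils were split by markers into 5 stages. Cells with Ltf and Camp, genes of the secondary granules (604 cells), are called immature, cells with high stefin A genes (2320) maturing, cells without activation genes (2372) mature, and cells with cytokine and NF-kB genes (1421) inflammatory. A last set had interferon-response genes and enough cells in 6 mice.

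The share of ribosomal protein UMIs was lowest in the stefin-high stage and highest in the inflammatory stage. It was 3.17% ± 0.326 in Ltf+ Camp+ cells, 2.77% ± 0.126 in stefin-high cells, 4.27% ± 0.144 in mature cells and 5.47% ± 0.403 in inflammatory cells (SD, n = 8), and 4.89% ± 0.564 in interferon-response cells (n = 6). Every mouse was between 2.60 and 2.90% in the stefin-high stage, between 4.06 and 4.46% in the mature stage and between 4.71 and 6.06% in the inflammatory stage, so these 3 did not overlap. The order of the last 2 depended on how the stages were drawn, and with 30 principal components in the clustering it turned, with 5.06% in mature and 4.575% in inflammatory cells, while stefin-high cells stayed lowest at 2.908%. The UMIs per cell gave another order. The median Ltf+ Camp+ cell held 133 to 170.5 ribosomal protein UMIs, against 52 to 71 in stefin-high, 55 to 68 in mature and 66 to 80 in inflammatory cells. Total UMIs per cell moved with the stage, from 4686.5 to 5752.5 in Ltf+ Camp+ cells to 2006 to 2533, 1291.5 to 1519 and 1175 to 1417 in the 3 later stages, and the part of this depth in the shares was not tested.

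Gene by gene, each stage was compared with the mature stage over 3258 genes by the same test. Here too the counts depended on the scaling, since the median of all genes shifted by -0.48 (Ltf+ Camp+), -0.42 (stefin-high), 0.25 (inflammatory) and 0.32 (interferon-response) log2 units with library totals. In Ltf+ Camp+ cells 49 of 82 ribosomal protein genes were higher and 12 lower by TMM (all genes 32.4% and 34.2%), and 19 were higher and 38 lower with library totals (18.1% and 54.2%). In both scalings the same 19 were higher and 12 lower, while 5 were called in opposite directions. In stefin-high cells 8 were higher and 36 lower by TMM (22.5% and 21.7%), and 0 and 72 with library totals (9.76% and 55.7%), with 36 lower in both and 2 called in opposite directions. In inflammatory cells 28 were higher and 2 lower (10.7% and 11.2%), and 71 and 0 with library totals (30.6% and 4.79%), with 28 higher in both. In interferon-response cells 0 were higher and 2 lower (2.55% and 4.14%), and 6 and 0 with library totals (4.76% and 0.767%). At an unadjusted p under 0.05 by TMM there were 13, and DESeq2 called 2 higher and 1 lower. No share of all genes is given here for these counts, so they are not read as a result about these genes. A gene called in both scalings is called in each of them. The smaller of the 2 shares of all genes is therefore an upper limit for such calls.

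Among the genes that separated Ltf+ Camp+ cells from mature cells were several already named, Rpsa and Rps18 on the higher side and Rps27, Rpl37 and Rps9 on the lower. Rpsa was at 144.6 ± 33.6 CPM in Ltf+ Camp+ cells (97.1, 150.4 and 184.2 in the lowest, median and highest mouse) and at 59.4 ± 10.4 CPM in mature cells (45.9, 60.7 and 76.5). No mouse overlapped, and the log2 fold change was 1.67 ± 0.14 by TMM (adjusted p = 1.7e-15) and 1.19 with library totals. Rpl22l1 (1.47), Rps18 (1.30), Rpl4 (1.27) and Rps4x (1.26) were also higher in both scalings. Rps27 was at 1238 ± 110 CPM in Ltf+ Camp+ cells and at 3593 ± 177 CPM in mature cells, a log2 fold change of -1.05 ± 0.07 by TMM and -1.53 with library totals. Rpl37 (-0.93), Rps9 (-0.65) and Rpl3l (-1.20) were lower in both as well. As shares of the ribosomal protein UMIs, Rps27 rose from 3.92% in Ltf+ Camp+ cells to 6.60% in stefin-high and 8.43% in mature cells, and Rps9 from 4.91% to 7.04% and 7.91%, while Rpsa fell from 0.453% to 0.197% and 0.139% and Rps4x from 1.06% to 0.742% and 0.445%. In the fit relative to the ribosomal protein total, 46 genes had a larger and 15 a smaller share in Ltf+ Camp+ than in mature cells (30.5% and 35.9% of all genes). Beside them, Rpl36al (1.80), Eif3e (1.41), Npm1 (1.04) and Rack1 (0.80) were higher by TMM, and Fau (-0.92) and Eif4ebp1 (-1.39) lower. Rack1 was not called with library totals (0.32).

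**Figure D4:**
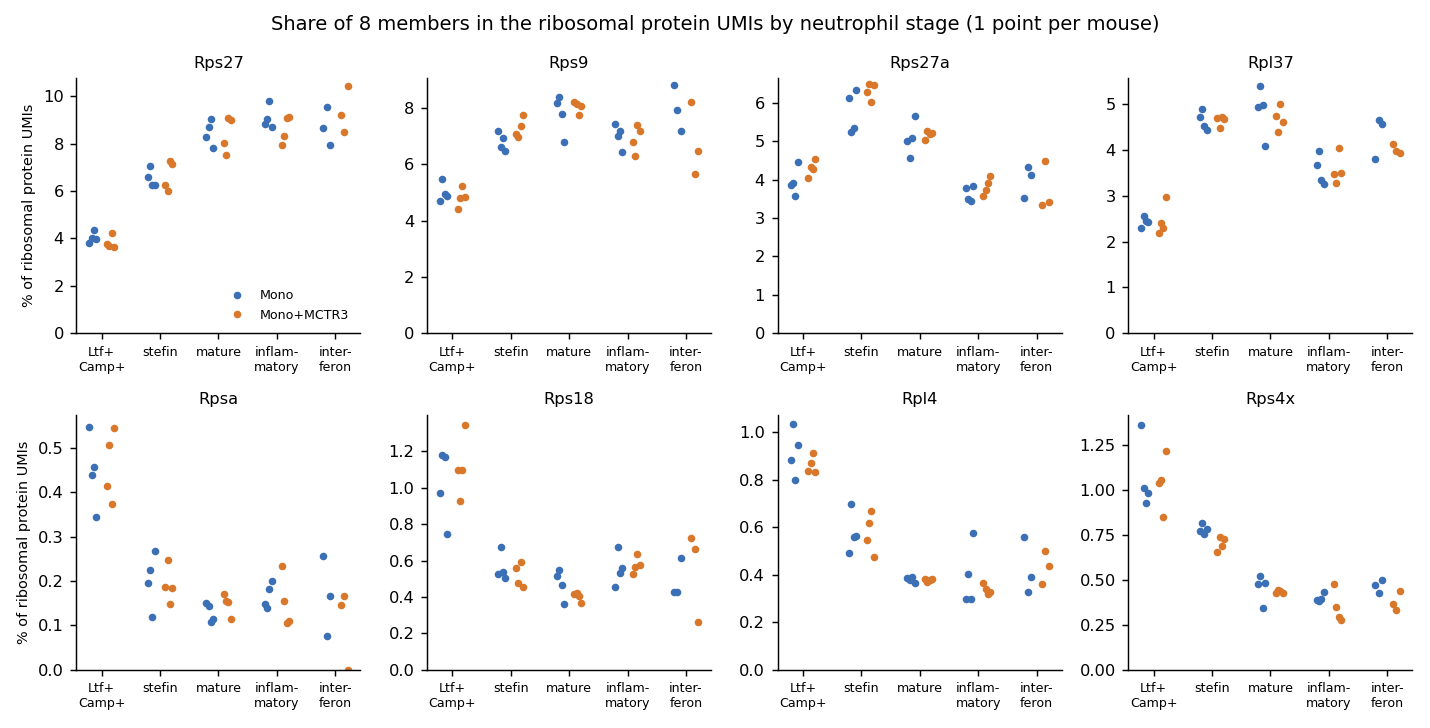
Share of 8 ribosomal protein genes in the ribosomal protein UMIs (vertical axes, percent) in 5 neutrophil stages from Ltf+ Camp+ to interferon-response, 1 point per mouse, blue for Mono and orange for Mono+MCTR3. Rps27 rises from 3.92% in Ltf+ Camp+ cells to 8.43% in mature cells, whereas Rpsa, Rps18, Rpl4 and Rps4x have their highest shares in Ltf+ Camp+ cells. Shares do not depend on the choice between TMM and library totals.

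In stefin-high cells the 5 largest falls were in Rps27l (-0.76), Rps28 (-0.67), Rps27 (-0.56), Rpl18 (-0.55) and Rpl3l (-0.54), and all were lower with library totals too. The call for Rpl3l was lost without Mono+MCTR3 mouse 2. Rps4x (0.52), Rpl4 (0.41), Rps24 (0.39), Rpl31 (0.33) and Rpl7a (0.31) were higher by TMM, but with library totals none was called and the last 4 were below 0 (-0.01, -0.04, -0.09 and -0.11). Rps28, a small subunit protein near the exit of the mRNA, was at 179.1 ± 21.7 CPM in stefin-high, 385.5 ± 58.4 CPM in mature and 699.9 ± 100.1 CPM in inflammatory cells, and the 8 mice of each stage did not overlap with those of the next.

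In inflammatory cells Rpl36 (0.65 ± 0.11, adjusted p = 3.9e-06), Rps28 (0.62), Rps27l (0.61), Rpl22 (0.60) and Rpl14 (0.58) led the higher genes in both scalings. Rps27a (-0.35) and Rpl37 (-0.31) were lower by TMM but not with library totals (-0.10 and -0.06). Inflammatory cells had 16 genes with a larger and 3 with a smaller share of the ribosomal protein UMIs than mature cells (7.52% and 16.9% of all genes), stefin-high cells 17 and 13 (34.5% and 12.7%), and interferon-response cells 0 and 1 (2.82% and 1.47%). The inflammatory result depended on how this stage was drawn: with 30 principal components in the clustering, 0 genes were higher and 1 lower, and 4 of the 5 named above changed sign. In interferon-response cells Rps27a (-0.53) and Rpl37 (-0.36) were lower by TMM but not with library totals (-0.18 and -0.01).

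The comparison of the groups asks whether joint leukocytes of mice given MCTR3-incubated monocytes carried more or fewer ribosomal protein mRNAs. The ranges of the Mono and Mono+MCTR3 mice overlapped in every class and stage. In neutrophils the share was 3.59%, 3.97%, 3.92% and 3.38% in Mono mice 1 to 4 and 3.79%, 3.30%, 3.44% and 3.79% in Mono+MCTR3 mice 1 to 4. In T cells it was 43.1%, 39.4%, 41.6% and 38.6% against 42.7%, 43.4%, 38.5% and 43.7%. The means of the groups thus lay within the spread of single mice in both classes. In mononuclear phagocytes the mean was 19.9% in 4 Mono and 21.0% in 2 Mono+MCTR3 mice, with ranges that overlapped. In 1 cluster of that class the ranges of the same numbers of mice did not overlap, with means of 20.9% and 22.6%. This difference was not tested.

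B cells showed the largest difference in means. The share was 25.0%, 21.7%, 24.4% and 24.9% in Mono mice and 27.0%, 28.9%, 24.5% and 25.1% in Mono+MCTR3 mice, a mean of 24.0% against 26.4%. The 2 highest mice were Mono+MCTR3 mice and the lowest was a Mono mouse, but the other 5 lay close together. B cells held 2 sets, 1 with high Vpreb3 (21.2% ± 1.73 ribosomal protein UMIs) and 1 with high Ighd (30.5% ± 2.12), and the Ighd-high set was 45.8%, 33.0%, 36.1% and 36.8% of B cells in Mono mice 1 to 4 and 51.3%, 54.5%, 48.2% and 33.9% in Mono+MCTR3 mice 1 to 4. Within the Ighd-high set the mean share was 29.1% in Mono and 31.8% in Mono+MCTR3 mice. Within the Vpreb3-high set it was 20.9% and 21.5%, and the ranges of the groups overlapped in both sets. The part of the mix of the 2 sets in the B cell difference was not tested. In NK cells the share was 22.9%, 19.7%, 21.4% and 21.7% against 22.6%, 26.2%, 20.4% and 22.7%, with Mono+MCTR3 mouse 2 alone above all Mono mice.

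No ribosomal protein gene was called between the groups in any of the 5 classes and 5 stages by edgeR's quasi-likelihood test, by edgeR's likelihood ratio test or by DESeq2. The lowest adjusted p of a ribosomal protein gene by the first test was 0.990 in neutrophils, 0.949 in B cells, 0.995 in T cells, 0.915 in NK cells and 0.610 in mononuclear phagocytes, and 0.472 to 0.896 in the stages. Over all genes the same test called 0.00% in either direction in every unit but mononuclear phagocytes (0.0266% higher). At an unadjusted p under 0.05 there were 0 of 82 genes in neutrophils (4.62% of all genes), 7 of 81 in B cells (4.97%), 0 of 81 in T cells (5.20%), 4 of 80 in NK cells (4.80%) and 2 of 81 in mononuclear phagocytes (6.84%). DESeq2 gave 0, 6, 0, 1 and 0 such genes and the likelihood ratio test 0, 3, 0, 1 and 1. For DESeq2 and the likelihood ratio test no share of all genes is given, here or for the stages. In the stages there were 10 of 80 in Ltf+ Camp+ cells (5.13%), 1 of 82 in stefin-high (5.95%), 1 of 81 in mature (6.39%), 3 of 80 in inflammatory (5.38%) and 0 of 51 in interferon-response cells (3.82%), with 4, 1, 0, 2 and 0 by DESeq2 and 10, 2, 1, 4 and 0 by the likelihood ratio test.

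Most ribosomal protein genes lay slightly above 0 in lymphocytes, within the error of each gene. The log2 fold change was positive for 79 of 81 genes in B cells (median 0.18), 75 of 80 in NK cells (0.15), 72 of 81 in T cells (0.08), 65 of 81 in mononuclear phagocytes (0.09) and 53 of 82 in neutrophils (0.03), beside medians of all genes from -0.01 to 0.01. With library totals the positive genes were 78, 74, 67, 66 and 22, so the direction in neutrophils turned with the scaling. The lower and upper 95% limits of the genes had separate medians of -0.05 and 0.42 in B cells. They were -0.10 and 0.38 in NK cells, -0.14 and 0.30 in T cells, and -0.20 and 0.25 in neutrophils. The limits use a normal approximation, so they are somewhat narrower than the quasi-likelihood test would give. The genes of a sample share its total, so the number of positive genes is not a count of independent events. In the stages 73 of 80 genes were positive in Ltf+ Camp+ cells (median 0.13), 39 of 82 in stefin-high cells (-0.01), 53 of 81 in mature cells (0.03), 53 of 80 in inflammatory cells (0.05) and 22 of 51 in interferon-response cells (-0.03), and 70, 25, 44, 34 and 15 were so with library totals.

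**Figure D5:**
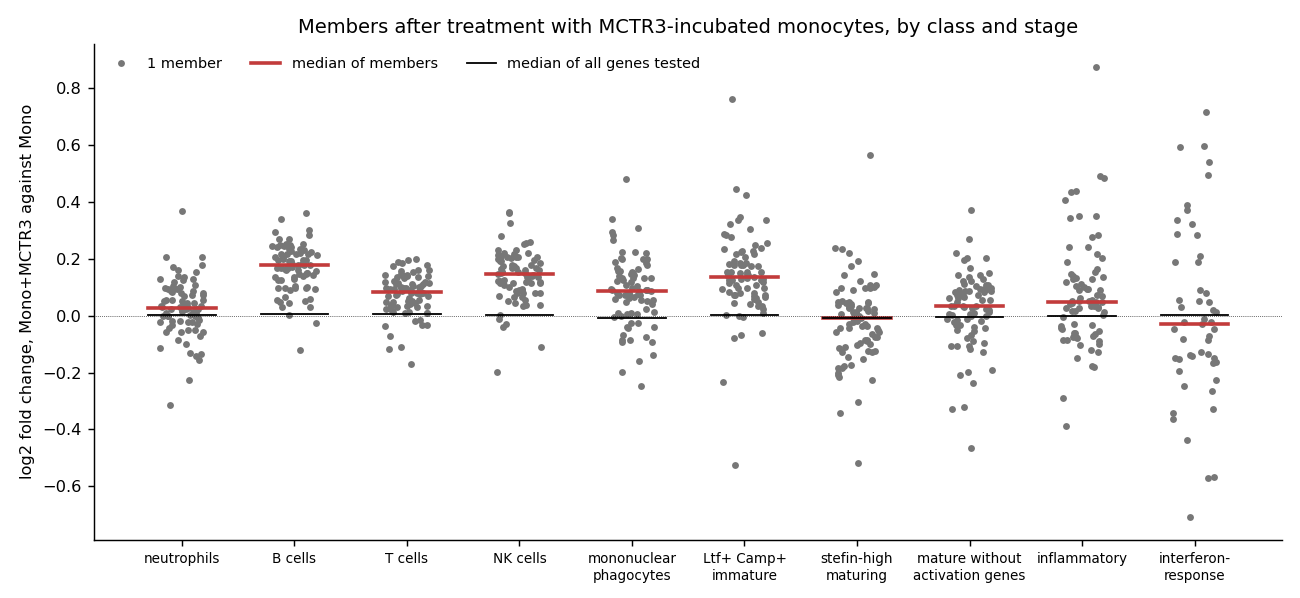
Log2 fold change of each ribosomal protein gene, Mono+MCTR3 against Mono by TMM scaling (vertical axis), in 5 classes and 5 neutrophil stages, 1 point per gene, with a red line at the median of these genes and a black line at the median of all genes tested. The medians of these genes lie between -0.03 and 0.18 and no gene was called; with library totals the median in neutrophils, stefin-high, inflammatory and interferon-response cells lies below 0.

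Few genes separated the groups mouse by mouse. In B cells 3 of 81 genes had every Mono+MCTR3 mouse above every Mono mouse (0.989% of all genes did) and 0 the reverse (2.26%), and in NK cells 3 of 80 (1.44%) and 0 (2.24%). In neutrophils the counts were 0 (0.520%) and 1 (1.77%), and in T cells 0 (1.19%) and 0 (1.54%). In mononuclear phagocytes, with 4 against 2 mice, they were 13 (8.15%) and 1 (7.75%). In the stages they were 2 (0.705%) and 0 (1.76%) in Ltf+ Camp+ cells, 0 (1.29%) and 2 (1.63%) in stefin-high, 0 (1.05%) and 0 (1.98%) in mature, 1 (0.522%) and 0 (2.40%) in inflammatory and 0 (3.82%) and 1 (6.68%) in interferon-response cells.

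The highest gene in B cells was Rpl30, a large subunit protein, with 1347, 1031, 1059 and 1331 CPM in Mono mice and 1532, 1721, 1286 and 1442 CPM in Mono+MCTR3 mice. Mono mice 1 and 4 lay above Mono+MCTR3 mouse 3, so the groups overlapped, and its log2 fold change was 0.36 without a call. Rpl12 was the highest gene in 6 of the other units, with log2 fold changes of 0.37 in neutrophils, 0.20 in T cells, 0.37 in NK cells, 0.48 in mononuclear phagocytes, 0.76 ± 0.31 in Ltf+ Camp+ cells (unadjusted p = 0.0233, adjusted p = 0.875) and 0.88 ± 0.37 in inflammatory cells. In neutrophils its level was 25.4, 26.3, 30.3 and 37.3 CPM in Mono mice and 46.5, 36.3, 31.8 and 28.1 CPM in Mono+MCTR3 mice, which overlap, and it was at -0.01 in mature cells. The classes share the same 8 mice, so these are not separate observations. Rpl15, of the large subunit, was the lowest gene in B cells (-0.12), T cells (-0.17) and NK cells (-0.20), again without a call.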

How the data were processed

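The authors deposited 1 table of UMI counts per group, with genes as lines and cell barcodes as columns, and the counts were used as deposited, with no normalization. Per the submitters' processing notes they were made with Cell Ranger on GRCm38, and edgeR is named too. Their versions and the counting settings: not given in the sources used here. Cell Ranger aggregation can equalise depth between samples of 1 table, so totals may understate differences in depth. Libraries of the same group shared 0 to 7 cell barcodes and of different groups 0 to 4.

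Cells were filtered as in the report. Scrublet (scanpy 1.11.5) called 52 doublets (0.507%), which stayed in, with their removal as an alternative. Cells were clustered with Seurat 5.3.0 (2000 variable genes without ribosomal protein genes, 20 components, resolution 0.5), giving 18 clusters. Naming rules were adjusted after the clusters were seen: a first version based on the fold over other cells left most neutrophils unnamed, so the level against the mean over clusters was used, mixed clusters were split again, cycling cells were kept apart and haemoglobin genes were ignored. An early granule-forming stage could therefore not be given.

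Counts were summed per mouse, and per class or stage with at least 10 cells, and tested with edgeR 4.0.16 (R 4.3.3) by the quasi-likelihood test with TMM scaling, the mouse as a block between classes and stages and no block between groups, after edgeR's filter on low counts. Alternatives were library totals, no filter, DESeq2 1.42.0, the likelihood ratio test of edgeR, other clusterings and cell filters, and each mouse left out. The block takes the 8 mice from the barcode suffix. Between groups, p-values measure the spread between mice told apart in this way. Between classes and stages the block takes out the level of each mouse, and p-values measure the spread that remains. The test was checked on simulated counts in which samples differed only in depth, random spread and a few genes changed equally up and down. That setting cannot show how the test behaves where the scaling decides the calls. Python 3.11.15, numpy 2.4.6, pandas 2.3.3, scipy 1.17.1 and matplotlib 3.10.9 were used for the rest.

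Members and lists were chosen with earlier results of these data known. Named genes were the 5 most abundant, the stalk genes and Rpsa, paralogs, X-linked genes and, in each comparison, the 5 largest changes in each direction past an adjusted p of 0.05, or the highest and lowest where none passed, with up to 3 genes per direction from each of the 7 lists; some genes that this rule names are not reported here. The B cell sets and the alternatives of the relative fit were added after the data were seen. Percentages and levels are means over mice, with no test on the summed percentage.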

Additional observations from a re-analysis of the deposited data

Results flagged for a closer look

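Counts of 16 annotated pseudogenes of ribosomal proteins, which were not among the genes described above, were present in every class. They made up 0.4038% ± 0.0598 of all UMIs in T cells (SD, n = 8), 0.245% in B cells, 0.226% in NK cells, 0.191% in mononuclear phagocytes (n = 6) and 0.0310% in neutrophils. The lowest T cell mouse was at 0.317% and the highest neutrophil mouse at 0.0411%, so the classes ranked as they did for the ribosomal protein genes at their ends. In T cells the Mono mean was 0.422% and the Mono+MCTR3 mean 0.386%. These counts stood out because they lie outside the genes compared. Whether they are transcripts of the pseudogenes or reads of the parent genes placed there was not tested.

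Among 63 groups of 4 mice, each a value of the ribosomal protein percentage or of a named gene in 1 group, 0 had a mouse that stood apart from the other 3 by Dixon's criterion. Chance alone would give such a mouse in about 1 group of 20.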

How the results depend on the processing

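The counts of ribosomal protein genes higher than in neutrophils stayed within 1.5 times under every alternative run, while the counts of lower genes and the stage comparisons moved. With library totals the lower genes were 1 in each class, and with resolution 0.3, a mitochondrial limit of 10% or doublets removed they were 2 in NK cells and 1 in T cells. Library totals also turned Rps27l in B cells (0.28) and T cells (0.37), Rps27a in B cells (0.73), mononuclear phagocytes (0.97) and NK cells (0.64), Rps9 in B cells (0.79), mononuclear phagocytes (0.73) and NK cells (0.17), Rps27 in mononuclear phagocytes (0.97), Rpl37 in NK cells (1.23), Fau in B cells (0.86), T cells (0.86), NK cells (0.32) and mononuclear phagocytes (0.54), Eif5a in T cells (0.86), and Rpl4 (-0.0147), Rps24 (-0.0353), Rpl31 (-0.089) and Rpl7a (-0.11) in stefin-high cells. That scaling gave 71 higher and 0 lower genes in inflammatory, 6 and 0 in interferon-response, 19 and 38 in Ltf+ Camp+ and 0 and 72 in stefin-high cells, by its construction a shift of all genes. Without the low-count filter 9 genes were higher in inflammatory cells, 13 lower in interferon-response cells, 32 higher and 20 lower in Ltf+ Camp+ cells and 22 lower in stefin-high cells. DESeq2 gave 7 lower in Ltf+ Camp+ cells and 2 higher and 1 lower in interferon-response cells. With 30 components 0 were higher and 1 lower in inflammatory cells, and Rpl36 (-0.14), Rps28 (-0.12), Rps27l (-0.19) and Rpl22 (-0.12) turned there. Resolution 1.0 gave 15 higher in inflammatory, 1 lower in interferon-response and 5 higher in stefin-high cells. Ribosomal protein genes in the clustering gave 4 lower in interferon-response cells, and the 10% limit 0 lower there and 5 higher in stefin-high cells. Resolution 0.3 gave no mature stage, so its stage comparisons could not be given. In this section the counts stand without the share of all genes called under the same alternative. They show how far the calls moved and are not a result about these genes. The causes of these moves were not tested.

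Relative to the ribosomal protein total (alternatives added after the data were seen), inflammatory cells had 10 larger shares at resolution 1.0, 0 larger and 0 smaller with 30 components, and 5, 7 and 5 smaller with ribosomal protein genes in the clustering, the 10% limit and doublets removed. Interferon-response cells had 1 larger with ribosomal protein genes in the clustering or doublets removed, and 0 smaller with 30 components, the 10% limit or no upper gene limit. The percentage of UMIs moved to 5.061 in all cells and 19.8 in NK cells as a median over cells. With 30 components it was 2.908 in stefin-high, 5.06 in mature and 4.575 in inflammatory cells, at resolution 1.0 and 0.3 4.848 and 4.709 in inflammatory cells, 4.102 and 4.122 in mature cells with ribosomal protein genes in the clustering and the 10% limit, and 4.253 in interferon-response cells with no upper gene limit.

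Without 1 mouse, the higher genes in stefin-high cells were 5 to 8 (5 without Mono mouse 3). Relative to the ribosomal protein total, inflammatory cells had 10 to 15 larger (10 without Mono+MCTR3 mouse 3) and 2 to 5 smaller shares (5 without Mono mouse 3), interferon-response cells 0 to 1 larger (1 without Mono mouse 2 or Mono+MCTR3 mouse 3 or 4) and 0 to 1 smaller (0 without Mono mouse 1), and stefin-high cells 8 to 13 smaller (8 without Mono mouse 1). No paired analysis was possible between the groups because the barcode suffixes carry no pairing of a Mono with a Mono+MCTR3 mouse. Between classes and stages the mouse was a block. The depth of 18 to 184 Ltf+ Camp+ and 10 to 60 interferon-response cells per mouse limits what the stages can show.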

Other observations

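The 2 sets of B cells differed from each other in ribosomal protein content, a comparison added after the data were seen. Cells with high Vpreb3 gave 21.2% ± 1.73 of their UMIs to ribosomal protein genes and cells with high Ighd, the heavy chain of naive mature B cells, 30.5% ± 2.12 (SD, n = 8). By TMM 79 of 81 ribosomal protein genes were higher in Ighd-high cells and 0 lower, with a median log2 fold change of 0.69 (edgeR's quasi-likelihood test over 2073 genes, of which 22.3% were higher and 20.9% lower). With library totals 70 were higher and 2 lower (14.2% and 42.2% of all genes). The largest changes were in Rps27 (1.30), Rps24 (1.16), Rps21 (1.11), Rpl38 (1.11) and Rps29 (1.08), and the lowest was Rpl7l1 (-0.35), which was not called. Relative to the ribosomal protein total, 21 genes had a larger and 31 a smaller share in Ighd-high cells (6.08% and 79.4% of all genes), with Rps27l (-0.99) and Rps3a1 (-0.63) the furthest down. Myc was 2.48 higher in the Ighd-high set.

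Taken apart, neither B cell set had a ribosomal protein gene called between Mono+MCTR3 and Mono by edgeR's quasi-likelihood test. At an unadjusted p under 0.05 there were 11 of 79 genes in Ighd-high cells (74 of 1480 over all genes) and 1 of 81 in Vpreb3-high cells (137 of 2720 over all genes).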
